A study of Rattus norvegicus with 6 samples.

Results

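The change that an iron-free diet made in rat liver was set against the change it made in rat kidney, for 5430 genes of the 19958 that have a gene ID on the array. A gene entered if a probe of it was well above background on all 4 tissue arrays, as the scanner software judged every spot, and was printed at 2 or more spots. This kept 5854 of 30367 gene probes, and where a gene had several, the brightest stood for it. The filter leaves out genes of 1 tissue: 1137 genes were above background on both liver arrays without entering, and 841 likewise in kidney. The response of a tissue is the log2 value on the iron-free diet minus that on the iron-sufficient diet, and the contrast is the liver response minus the kidney response.

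The animals were Wistar rats, called mice in some of the labels, kept for 4 weeks on the purified diet AIN-93G with iron (iron-sufficient, labelled CTL) or without it (iron-free, labelled ID). Total RNA of liver and kidney from 6 animals per diet was pooled, so each of the 4 groups is 1 one-colour array, and no spread between animals can be given. The remaining 2 arrays of the series hold FAO cells, a rat liver cell line, untreated or given 100 µM of the iron chelator deferoxamine for 24 h. Age and sex are not given in the labels used here.

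Iron is taken up by most cells through transferrin receptor 1, stored in ferritin and exported by ferroportin. Iron regulatory proteins bind the messages for these proteins when iron is scarce, which protects the transferrin receptor message from decay and holds back ferritin translation. The liver is the main iron store and makes transferrin and hepcidin, while the kidney reabsorbs filtered iron and makes erythropoietin. Enzymes that sense oxygen, desaturate fatty acids, make collagen or supply deoxynucleotides carry iron at their active site.

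No gene has a test here, since every group is 1 array. A gene is called by size alone, at a response or contrast of at least 2-fold (1 on the log2 scale), and "rose" and "fell" mean past that size. The ± after a value is a standard error between repeated spots of a probe, pooled over probes of like signal, and it covers spot noise only. A level is the authors' log2 intensity relative to the 75th percentile of its array, and levels are compared only for the same probe.

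The labelled tissues carried their markers: 22 of 22 hepatocyte markers were above background on both liver arrays and 9 on both kidney arrays, and 29 of 30 nephron markers were above it on both kidney arrays against 5 and 6 on the liver arrays. The iron-sufficient liver array stood apart in spot quality. A block of 16 by 16 spots was taken as noisy where its repeated spots departed from their probe's median by a median of at least 0.3 on the log2 scale. This held for 37 of its 264 blocks against 1 to 7 on the other tissue arrays, and 30.6% of the genes had a spot in such a block there. The share of gene probes above background was 40.0% and 47.7% in liver and 37.5% and 40.5% in kidney, iron-sufficient first. Every response was also computed without the noisy blocks, and where a gene named below as past 2-fold then lost its class, the value without them is given.

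Of the 5430 genes, 139 (2.56%) rose and 114 (2.1%) fell in liver, while 53 (0.976%) rose and 21 (0.387%) fell in kidney. The contrast was at least 2-fold toward a higher liver response in 156 genes (2.87%) and toward a higher kidney response in 147 (2.71%), of which 113 in all were past 2-fold in neither tissue. The standard deviation over genes was 0.48 for the liver response and 0.34 for the kidney response, with median spot errors of 0.23 and 0.20. Both tissues moved by the same sign in 3274 genes (60.3%), and Pearson's r between the responses was 0.23 across genes, which are not independent replicates. The liver split depends on the scaling. Higher genes made up 54.9% of the liver calls and 51.5% of the contrast calls with the authors' scaling, 98.2% and 90.5% when each array was scaled to the median of its own probes above background, and 73.2% and 65.5% with normexp background correction. Scaling to the 75th percentile of the probes above background on all 4 arrays gave 63.5% and 61.5%. The own-median scaling lifted the median response of all genes from -0.11 to 0.54 in liver and from -0.06 to 0.15 in kidney, so group medians below are read against the median of all genes.

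**Figure D1:**
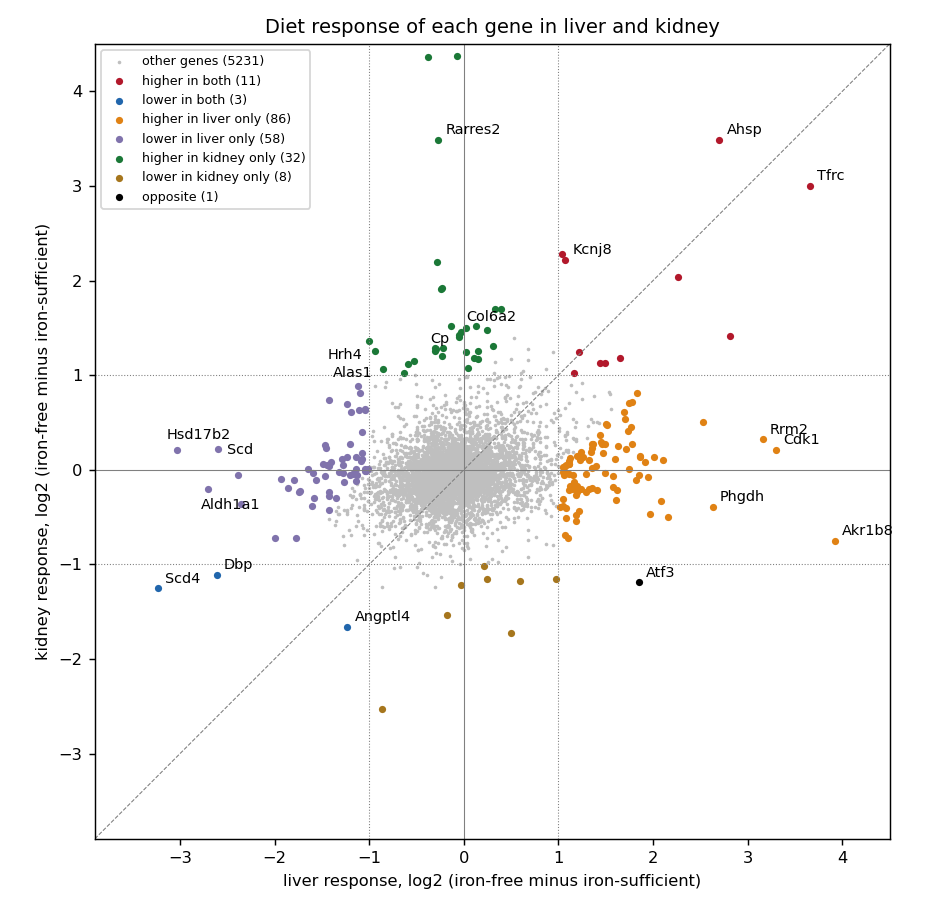
Each point is 1 of 5430 genes, with the liver response on the x axis and the kidney response on the y axis, both in log2 units, and dotted lines at 2-fold. Tfrc and Ahsp lie far along the dashed line of equal response, while most coloured genes lie along 1 axis, past 2-fold in a single tissue.

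Past 2-fold the same way in both tissues were 11 genes that rose (0.203%) and 3 that fell (0.0552%). In liver alone, with a contrast of at least 2-fold as well, 86 genes rose (1.58%) and 58 fell (1.07%), and in kidney alone 32 rose (0.589%) and 8 fell (0.147%). A single gene (0.0184%) passed in opposite directions. A further 94 genes passed in liver and 19 in kidney with a contrast under 2-fold, so they belong to neither tissue alone by this rule. The contrast of Tecpr1 lay just inside at 1.005 and that of Cdk4 just outside at 0.998. The liver response of Cyp4a2 lay just inside at -1.003 and that of Hk1 just outside at 0.996 (Cyp4a2 gave -0.95 with noisy blocks left out), and the kidney response of Plod1 just inside at 1.021 and that of Dcn just outside at 0.995.

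The shared increase was led by Tfrc, transferrin receptor 1. Its level was 1.82 on the iron-sufficient and 5.48 on the iron-free liver array, and 0.97 and 3.96 on the kidney arrays. Both iron-free arrays were above both iron-sufficient arrays. The rise was 12.6-fold in liver and 7.98-fold in kidney, and the contrast of 0.66 ± 0.28 was under 2-fold, but past it at 1.11 with own-median scaling and 1.14 with normexp. Pfkl, the liver form of phosphofructokinase, had levels of -0.60 and 0.62 in liver and -0.32 and 0.92 in kidney. Its responses of 1.22 and 1.24 differed by -0.02 ± 0.38, and a second probe of the gene gave 1.45 and 1.32. Pfkl passed in both tissues on 9 of 10 alternatives, and not with normexp.

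Bcl3, an I kappa B family co-activator of NF-kappa B, rose from 0.80 to 2.28 in liver and from -1.32 to -0.19 in kidney. Plod1, the iron-dependent lysyl hydroxylase of collagen, rose from 0.88 to 2.04 in liver and from -0.14 to 0.89 in kidney, and its liver response was 0.88 with the noisy blocks left out. Kcnj8, the pore of a potassium channel gated by ATP, is the shared gene with agreeing spots whose kidney response was larger by over 2-fold. Its level went from 0.93 to 2.0 in liver and from -1.44 to 0.78 in kidney, a contrast of -1.15 ± 0.32, or -0.44 with normexp. The other 4 shared genes had spots that differed by a standard deviation above 0.5 on some array: Btg2 (2.81 in liver, 1.41 in kidney), Ces1d (2.26 and 2.04, with no liver value left outside the noisy blocks), C7 (1.04 and 2.28, or 0.78 and 2.04 with noisy blocks left out) and Gapdhl9 (1.44 and 1.13), the last a copy of Gapdh whose signal the probe may share with its relatives.

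Ahsp, the chaperone of free alpha globin, rose from 0.81 to 3.51 in liver and from -1.73 to 1.76 in kidney. Hbb, beta globin, rose from 6.68 to 8.33 in liver and from 5.90 to 7.08 in kidney. A second Hbb probe gave 0.41 and -0.13, globin genes have near-identical copies, and with the median of its probes Hbb no longer passed in both tissues. Of 8 erythroid marker genes that entered, 5 rose in liver and 3 of them in kidney, where 2.56% and 0.976% of all genes rose. Tfrc is counted in both. The medians were 1.64 and 0.48, against -0.11 and -0.06 over all genes. The members that passed in neither tissue were Car2 (0.75 in liver, -0.11 in kidney), Hbb-b1 (0.53 and -0.40) and Tal1 (-0.03 and -0.27). Alas2, the erythroid form of the first heme enzyme, was past 2-fold in liver alone at 1.75 against 0.71 in kidney, and the anion exchanger Slc4a1 gave 1.63 and 0.25 with spots that disagreed. The summed linear signal of all 23 erythroid markers was 423 and 844 in liver and 279 and 325 in kidney, iron-sufficient first, while Gata1, Epor, Rhag, Epb42, Hemgn, Kel, Sptb and Hbe1 were not above background on any of the 4 arrays. That sum includes Hbb and Tfrc and is weighted to the brightest genes, so it is not separate from the responses of single genes above. In pooled tissue, more cells of a type and more RNA per cell cannot be told apart.

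**Figure D2:**
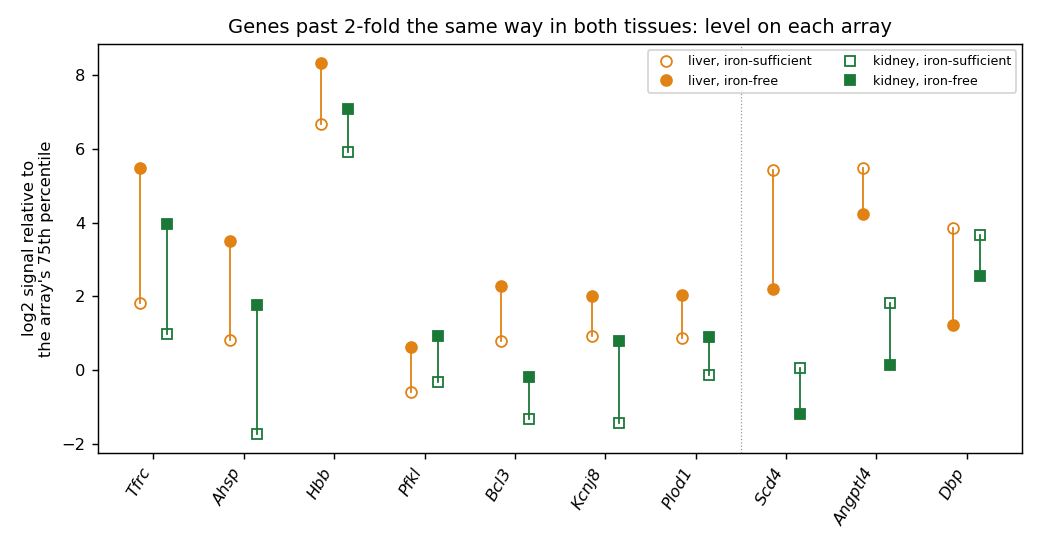
Levels of the 10 shared genes with agreeing spots are drawn per array, as log2 signal relative to the array's 75th percentile, for liver (circles) and kidney (squares) on the iron-sufficient (open) and iron-free (filled) diet. The 7 genes left of the dotted line have both filled symbols above their open ones, and the 3 to its right have them below.

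The 3 genes that fell in both tissues were Scd4, Angptl4 and Dbp. Scd4, named as a stearoyl-CoA desaturase, an iron enzyme that makes monounsaturated fatty acids, fell from 5.43 to 2.20 in liver and from 0.06 to -1.19 in kidney, a contrast of -1.98 ± 0.40. Scd genes are close relatives, so its probe may read other copies. Dbp, a clock output factor, fell from 3.84 to 1.22 and from 3.65 to 2.55, and 2 other probes gave liver responses of -2.66 and -2.30 and kidney responses of -1.22 and -1.11. The related factor Tef gave -1.08 in liver and -0.58 in kidney, and Cry1, a clock repressor, gave 1.19 and 0.82. The time of day at which tissues were taken is not given in the labels used here. Angptl4, an inhibitor of lipoprotein lipase, fell from 5.47 to 4.24 and from 1.81 to 0.15, whereas in FAO cells deferoxamine raised it by 3.20 on the log2 scale.

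The FAO arrays share no sample with the tissue arrays. Of the 11 genes that rose in both tissues, 6 were above background on both FAO arrays and 5 of these rose there, where 102 of 4934 genes (2.07%) rose and 188 (3.81%) fell. The FAO responses were 1.54 for Tfrc, 1.32 for Pfkl, 1.32 for Bcl3, 1.43 for Plod1 and 2.84 for Btg2, and 0.98 for Gapdhl9. Of the genes that rose in liver alone, 73 were measured in FAO cells and 7 rose there, and of those that fell in liver alone, 3 of 42 fell. In kidney alone, 4 of 22 measured genes that rose did so in FAO cells too, among them Cp (1.72) and Alas1 (1.29).

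Promoters of a few genes are shown because the shared genes moved together in both tissues and because Cdk1 had the largest liver response among the replication and mitosis genes. They are from RefSeq (build GRCr8), 250 bases before to 50 after the annotated start, 5′ to 3′ along the gene. Capitals mark the core of the hypoxia response element, searched as ACGTG or GCGTG on both strands, in Tfrc (chr11:81690269-81690568, minus strand), Pfkl (chr20:10663715-10664014, plus strand) and Plod1 (chr5:163650688-163650987, minus strand). In Cdk1 (chr20:19265043-19265342, plus strand) capitals mark TTTGAA, the cell-cycle homology region, on either strand.
Tfrc: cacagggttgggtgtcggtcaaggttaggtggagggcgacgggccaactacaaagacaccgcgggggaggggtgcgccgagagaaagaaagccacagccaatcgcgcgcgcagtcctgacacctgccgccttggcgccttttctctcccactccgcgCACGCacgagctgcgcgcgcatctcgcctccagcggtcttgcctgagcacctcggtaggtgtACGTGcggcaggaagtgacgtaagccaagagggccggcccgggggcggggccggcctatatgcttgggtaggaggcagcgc
Pfkl: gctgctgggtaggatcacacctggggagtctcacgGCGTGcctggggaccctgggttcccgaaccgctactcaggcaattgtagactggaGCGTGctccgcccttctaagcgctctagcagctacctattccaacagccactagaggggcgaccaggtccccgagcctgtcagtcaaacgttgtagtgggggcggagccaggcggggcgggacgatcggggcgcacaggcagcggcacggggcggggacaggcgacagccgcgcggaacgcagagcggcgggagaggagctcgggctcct
Plod1: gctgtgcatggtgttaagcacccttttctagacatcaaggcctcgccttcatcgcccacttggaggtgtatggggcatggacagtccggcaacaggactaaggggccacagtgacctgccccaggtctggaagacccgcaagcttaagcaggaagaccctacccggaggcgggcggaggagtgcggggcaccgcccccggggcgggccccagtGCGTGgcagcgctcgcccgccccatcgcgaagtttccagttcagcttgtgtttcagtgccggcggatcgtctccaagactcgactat
Cdk1: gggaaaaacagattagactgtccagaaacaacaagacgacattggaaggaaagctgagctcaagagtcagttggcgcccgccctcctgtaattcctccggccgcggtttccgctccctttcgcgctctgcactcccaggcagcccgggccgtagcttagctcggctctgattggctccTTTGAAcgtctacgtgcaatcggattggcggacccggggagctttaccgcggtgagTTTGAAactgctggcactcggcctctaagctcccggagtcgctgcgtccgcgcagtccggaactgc
Of the 11 genes that rose in both tissues, 9 had a promoter in the table and 7 of these (77.8%) held the hypoxia core, against 2861 of 4494 (63.7%) of the promoters of all genes that entered and 42.9% of all 27457 promoters. The core was in 6 of 7 promoters (85.7%) of the cholesterol genes that rose in liver and in 4 of 7 (57.1%) of the replication and mitosis genes. TTTGAA stood in 3 of 7 promoters (42.9%) of the replication and mitosis genes that rose in liver, in Cdk1, Cdc20 and Mcm2, against 10.9% of the promoters of genes that entered and 18.1% of all promoters. The sterol element TCACNCCAC, searched on both strands, was in none of the 7 promoters of cholesterol genes that rose in liver and in 1.13% of all promoters. A match describes letters in this window, not a bound site, and these groups were picked by their responses.

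In liver alone, the increase was led by Akr1b8, an aldo-keto reductase. Its level was -2.39 and 1.53 in liver and -0.09 and -0.84 in kidney, iron-sufficient first. The iron-free liver array was thus the highest of the 4 and the iron-sufficient liver array the lowest. Akr1b8 rose 15.1-fold in liver, its kidney response was -0.75, and the contrast was 4.67 ± 0.38, or 3.02 with normexp. Gstp1, glutathione transferase pi, is another detoxifying enzyme of this class, with levels of 1.03 and 2.64 in liver and 3.95 and 3.63 in kidney. Of 14 targets of the stress factor NRF2 that entered, Akr1b8 rose and Me1 fell in liver, where 2.56% and 2.1% of all genes did, and none passed in kidney. The list medians were -0.18 in liver and -0.25 in kidney, against -0.11 and -0.06 over all genes.

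Of 18 DNA replication and mitosis genes that entered, 8 rose and 1 fell in liver, against 2.56% and 2.1% of all genes, and none passed in kidney, with medians of 0.85 in liver, -0.04 in kidney and 1.0 for the contrast, against -0.06 for the contrast over all genes. Cdk1, the kinase that drives entry into mitosis, had levels of -1.37 and 1.93 in liver and -0.03 and 0.17 in kidney, a rise of 9.88-fold and a contrast of 3.1 ± 0.18, or 2.5 with normexp. Rrm2, the iron-carrying small subunit of ribonucleotide reductase, had levels of -0.17 and 2.99 in liver and 0.91 and 1.23 in kidney, with a contrast of 2.84 ± 0.30. For both genes the iron-sufficient liver array was the lowest of the 4 and the iron-free liver array the highest.

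The other 6 were the helicase subunits Mcm2 (1.32 in liver, 0.10 in kidney) and Mcm7 (1.05 and -0.02), the flap nuclease Fen1 (1.15 and -0.06), the clamp loader subunit Rfc3 (1.20 and -0.23), the mitotic kinase Aurka (1.47 and 0.18) and the anaphase activator Cdc20 (1.05 and 0.03). Spots of Rfc3 and Aurka disagreed, and Rfc3 gave 1.26 and 0.93 with noisy blocks left out. The member that fell was Ccnd1, cyclin D1, which acts before replication: its level was 0.40 and -1.38 in liver and 1.74 and 1.64 in kidney, a contrast of -1.68 ± 0.31. In the median over the list the contrast was 0.98 with noisy blocks left out and 1.44 with own-median scaling, where that of all genes was 0.39. Which cells of the tissue carried these messages was not measured.

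Of 21 genes of cholesterol synthesis and uptake that entered, 8 rose in liver, against 2.56% of all genes, and none in kidney, the medians were 0.80 and 0.18, and 20 of 21 contrasts were above the median of all genes. Mvd, which makes isopentenyl diphosphate, had levels of 0.09 and 1.95 in liver and 0.33 and 0.48 in kidney. Idi1, its isomerase, had 1.83 and 3.60 in liver and 1.47 and 1.92 in kidney. Acat2, which joins acetyl-CoA units, had 2.12 and 3.61 in liver and 2.36 and 2.34 in kidney.

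For these 3 genes the iron-free liver array was the highest and the kidney arrays lay close together, and the contrasts were 1.71 ± 0.33, 1.32 ± 0.27 and 1.52 ± 0.27. Msmo1, the sterol methyl oxidase, an iron enzyme, rose by 1.23 in liver against 0.10 in kidney, and the epoxidase Sqle by 2.53 against 0.50, the latter with spots that disagreed. Cyp51, Tm7sf2 and Hsd17b7 passed in liver at 1.18, 1.02 and 1.03 with a contrast under 2-fold. Own-median scaling gave list medians of 1.45 in liver and 0.38 in kidney, again above those of all genes.

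Several other genes of liver alone were low in iron-sufficient liver and high in kidney. Phgdh, the first enzyme of serine synthesis, had levels of -0.27 and 2.36 in liver and 5.56 and 5.16 in kidney, with a contrast of 3.02 ± 0.39. Rhbg, an ammonia channel, had -2.40 and -0.24 in liver and 2.07 and 1.57 in kidney. Nat8, the acetylase of cysteine conjugates, had 0.98 and 3.06 in liver and 5.74 and 5.41 in kidney.

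In each of these 3 genes the iron-free liver array was nearer to the kidney arrays than the iron-sufficient one, and below both of them. The same order held for Slc13a3, a dicarboxylate carrier, at 2.88 and 4.74 in liver and 7.84 and 7.78 in kidney, and for Krt7, a keratin of ducts, at -0.32 and 0.92 in liver and 6.23 and 6.03 in kidney. A second Krt7 probe gave 0.83 in liver and -0.29 in kidney. Over all 86 genes that rose in liver alone, the median gap of liver minus kidney was -1.0 on the iron-sufficient diet and 0.40 on the iron-free diet, 9 of the 86 being higher in liver than in kidney on the former. Among the 5118 genes past 2-fold in neither tissue, these median gaps were 0.11 and 0.08, and 2817 were higher in liver on the iron-sufficient diet. The gap and the contrast use the same arrays, so this is a description. Summed markers of the nephron were 33.0 and 35.7 in liver and 1650 and 1600 in kidney, and those of ducts 79.1 and 65.2 in liver, and neither sum changed by 2-fold.

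Zfp64, a zinc finger protein (1.95 in liver, -0.08 in kidney), and Cdr2, a cytoplasmic antigen of cerebellar degeneration (2.10 and 0.10), also rose in liver alone. Lamtor5, a subunit of the lysosomal Ragulator complex (1.82 and -0.11), has no value once the noisy blocks are left out. Egr1, an immediate early transcription factor, rose by 1.58 in liver against -0.18 in kidney, with a contrast of 1.76 ± 0.15. Aldoa, the muscle-type aldolase, rose by 1.35 against 0.27. Hsp90aa1, a chaperone, rose by 1.08 against -0.51, but its other 2 probes, of 1 spot each, gave contrasts of -0.03 and -0.01.

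**Figure D3:**
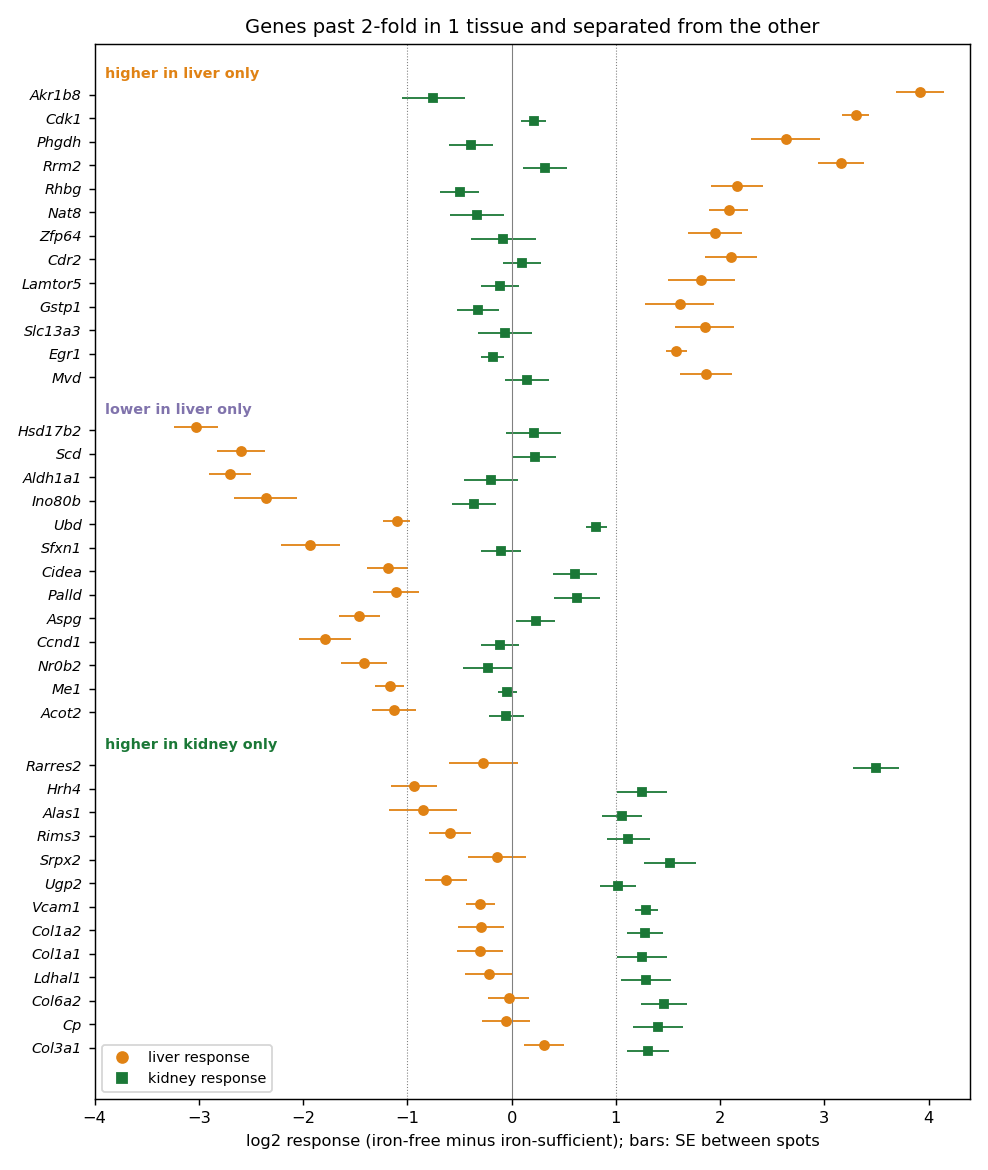
Liver responses (circles) and kidney responses (squares) in log2 units are drawn for the 13 named genes of largest contrast in each of the 3 larger classes of a single tissue, with bars for the standard error between spots and dotted lines at 2-fold. Akr1b8, Cdk1 and Rrm2 lie farthest to the right for liver, Hsd17b2 farthest to the left, and Rarres2 farthest to the right for kidney.

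The decrease in liver alone was led by Hsd17b2, a steroid dehydrogenase that inactivates estradiol and testosterone. Its level was 5.81 and 2.77 in liver and 0.11 and 0.32 in kidney, a contrast of -3.24 ± 0.33. Scd, a stearoyl-CoA desaturase listed as Scd1 on the array, had levels of 8.36 and 5.76 in liver and 0.27 and 0.49 in kidney, a contrast of -2.82 ± 0.31. Aldh1a1, a retinal dehydrogenase, had 4.42 and 1.72 in liver and 6.00 and 5.80 in kidney, and its FAO response was -2.50. In Hsd17b2 and Scd the iron-free liver array stayed above both kidney arrays, while in Aldh1a1 it fell farther below them.

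Of 10 genes of fatty acid and triglyceride synthesis that entered, 3 fell in liver, where 2.1% of all genes fell, and none passed in kidney. The medians were -0.49 and 0.16, against -0.11 and -0.06 over all genes. Beside Scd these were Me1, malic enzyme (-1.17 in liver and -0.04 in kidney, with -1.97 and -0.13 from a second probe), and Fasn, fatty acid synthase (-1.04 and 0.64, spots disagreeing, or -0.98 and 1.15 with noisy blocks left out). Me1 lost its place with noisy blocks left out, at a contrast of -0.98. Pklr, liver pyruvate kinase, gave -1.42 in liver and 0.74 in kidney.

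Of 29 genes of fatty acid oxidation and PPAR-alpha targets, 9 fell in liver, against 2.1% of all genes, with medians of -0.83 and -0.26, and 3 of 29 contrasts were above the median of all genes. The 9 that fell in liver had kidney responses from -0.72 in Cpt1a to -0.05 in Acot2. Cpt1a, the gate of mitochondrial fatty acid import, had levels of 3.76 and 1.99 in liver and 1.75 and 1.03 in kidney, and its contrast of -1.05 ± 0.13 became -0.96 with noisy blocks left out. Acot2, a mitochondrial thioesterase, gave -1.13 and -0.05, and Cyp4a1, a fatty acid hydroxylase, -1.21 and -0.64.

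With own-median scaling the list medians were -0.18 in liver and -0.05 in kidney, below the all-gene medians of 0.54 and 0.15. Leaving out the noisy blocks moved the median contrast from -0.47 to -0.39. Of 47 subunits of the respiratory chain and ATP synthase, none passed in either tissue, with medians of -0.25 in liver and 0.02 in kidney, where 2.56% and 2.1% of all genes rose and fell in liver and 0.976% and 0.387% in kidney. None of 26 genes of iron-sulfur cluster assembly and its client proteins passed either, with medians of -0.21 and -0.03. At these shares of all genes, a count of 0 in lists of this size says nothing particular about either list.

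Nr0b2, the bile acid feedback repressor SHP, fell from 6.09 to 4.67 in liver and was 1.09 and 0.86 in kidney. Hnf4a, a hepatocyte transcription factor, gave -1.14 in liver and -0.12 in kidney, at a contrast of -1.02 that became -0.98 with noisy blocks left out. The summed signal of all 22 hepatocyte markers was 5530 and 5610 in liver. Sfxn1, a mitochondrial serine carrier, gave -1.93 and -0.10, Ftcd, a folate enzyme of histidine breakdown, -1.35 and -0.30, and Ces2c, a carboxylesterase, -1.43 and -0.42 (contrast -0.97 with noisy blocks left out). Ino80b, a chromatin remodelling subunit, gave -2.36 and -0.36, and Aspg, an asparaginase, -1.46 and 0.23. Ubd, a ubiquitin-like modifier, gave -1.10 and 0.81 (-0.91 in liver with noisy blocks left out), Palld, an actin-binding protein, -1.11 and 0.63, and Cidea, a lipid droplet protein, -1.19 and 0.61.

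In kidney alone, the increase with agreeing spots was led by Rarres2, the secreted chemoattractant and adipokine chemerin. Its level was -0.17 and 3.32 in kidney and 6.40 and 6.13 in liver, iron-sufficient first. The iron-sufficient kidney array was thus the lowest of the 4. Rarres2 rose 11.2-fold in kidney, and the contrast was -3.76 ± 0.40. Rpl13a and Tyro3 had larger kidney responses of 4.36 and 4.37, but the spots of their probes differed by standard deviations of 5.82 and 5.94, and without noisy blocks the contrast of Rpl13a was -0.01.

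Of 18 collagen and matrix genes that entered, 6 rose in kidney, against 0.976% of all genes, and none in liver, with medians of 0.63 and 0.17, and 4 of 18 contrasts were above the median of all genes. Col1a1 and Col1a2, the chains of type I collagen, had kidney levels of -0.57 and 0.68 and of 1.60 and 2.88, and liver levels of 0.86 and 0.57 and of 2.89 and 2.60. Both were higher on the iron-free kidney array than on the iron-sufficient one, and lay in the opposite order in liver by less than 2-fold. Their contrasts were -1.55 ± 0.33 and -1.56 ± 0.28, and a second Col1a1 probe of 1 spot gave 0.83 in kidney and 0.07 in liver.

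Col6a2, a chain of type VI collagen, rose by 1.46 in kidney against -0.03 in liver, Col3a1 by 1.31 against 0.31, and fibronectin, Fn1, by 1.42 against -0.05. The contrast of Col3a1 was -0.96 with noisy blocks left out. Col5a2 passed in kidney at 1.28 with 0.68 in liver. Of 7 markers of stellate cells, fibroblasts and pericytes that entered, 3 rose in kidney, all of them collagen chains on the former list too, and the other 4 gave 0.99 (Dcn), 0.80 (Pdgfrb), 0.05 (Tagln) and -0.19 (Vim), with a list median of 0.99. The summed signal of the 15 markers was 12.2 and 23.6 in kidney and 31.9 and 34.2 in liver, with Lum and Thy1 not above background on any of the 4 arrays. That sum includes the same 3 collagen chains, so it is not separate from the collagen result. The part of these cells in the collagen result was not tested.

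Cp, ceruloplasmin, the plasma ferroxidase that helps iron leave cells, had levels of -0.86 and 0.54 in kidney and 7.30 and 7.25 in liver. It rose 2.63-fold in kidney, the contrast was -1.44 ± 0.33, and a second probe of 1 spot gave 1.12 in kidney and 0.03 in liver. Cp lost its place with own-median scaling and with normexp, where the contrast was -0.98. Alas1, the housekeeping form of the first heme enzyme, had 3.75 and 4.81 in kidney and 7.28 and 6.43 in liver, so the iron-free arrays were higher in kidney and lower in liver. Its contrast was -1.92 ± 0.38, and -1.65 with noisy blocks left out. By the size rule Alas2 passed in liver alone and Alas1 in kidney alone, and both lost that place with normexp, at contrasts of 0.83 and -1.42. Apart from these, none of the 16 heme genes that entered passed in either tissue.

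Vcam1, an adhesion molecule for leukocytes, rose by 1.29 in kidney against -0.30 in liver, and the complement proteases C1r and C1s by 1.52 and 1.48 against 0.13 and 0.24. Hrh4, a histamine receptor, rose by 1.25 against -0.94, Srpx2, a secreted sushi-domain protein, by 1.52 against -0.14, Rims3, a regulator of exocytosis, by 1.12 against -0.59, and Ugp2, which makes UDP-glucose, by 1.02 against -0.63. Ldhal1, a copy of lactate dehydrogenase A, rose by 1.29 against -0.22, and Ldha itself gave 1.26 against 0.15 with spots that disagreed, so their probes may read each other. Summed macrophage markers were 137 and 139 in kidney, and summed endothelial markers 55.5 and 64.5. Of neutrophil markers none entered, and their sums were 0.985 and 1.15 in kidney.

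Of the 8 genes that fell in kidney alone, Ddx1, an RNA helicase, was the one with agreeing spots. Its level was -0.01 and -1.16 in kidney and -0.05 and 0.20 in liver, a contrast of 1.40 ± 0.35, and it lost its place with own-median scaling and with normexp. Atf3, the stress factor that passed in opposite directions, gave 1.85 in liver and -1.19 in kidney, but its spots differed by a standard deviation of 1.62.

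**Figure D4:**
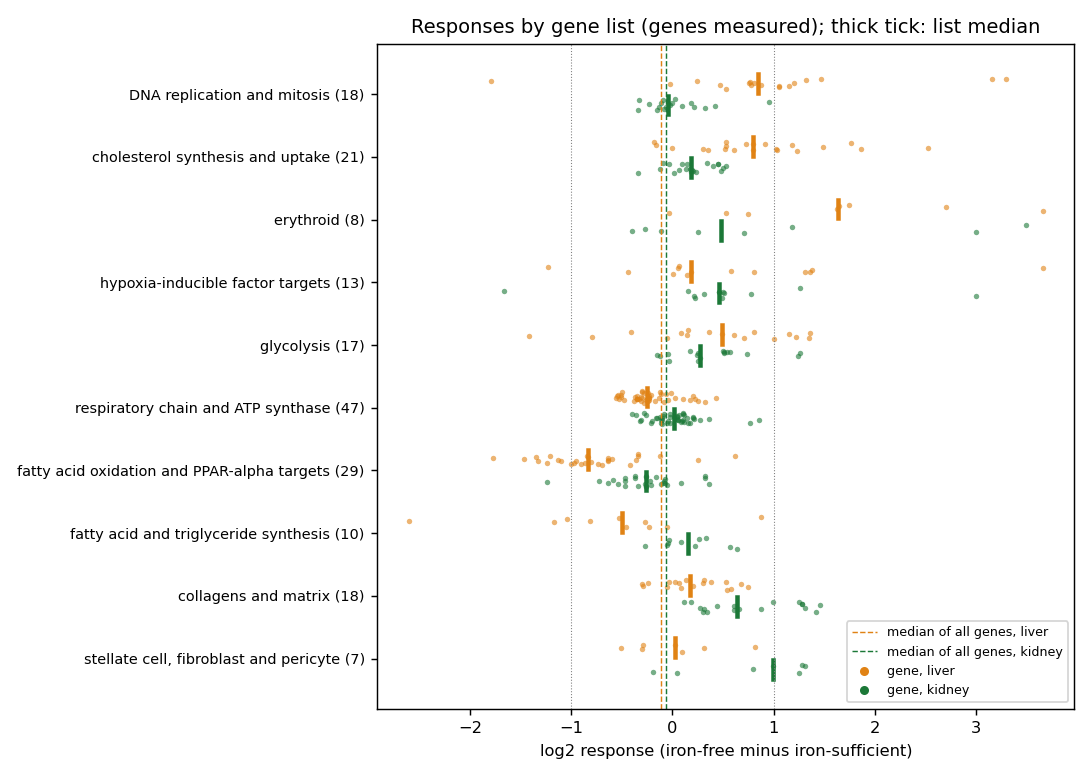
Liver (orange) and kidney (green) responses in log2 units are drawn for the genes of 10 lists, with the number that entered in brackets, thick ticks for list medians and dashed lines for the medians of all genes. The replication, cholesterol and erythroid medians lie to the right in liver, at 0.85, 0.80 and 1.64, and the fibroblast and collagen medians lie to the right in kidney, at 0.99 and 0.63.

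Apart from Tfrc and Cp, most iron genes that entered were within 2-fold in both tissues. Of 9 genes of iron import and the transferrin cycle, Tfrc alone passed in a tissue. Steap4, on the same list, had a contrast of -1.51, with spots that disagreed. Its liver response was -0.52 and its kidney response of 1.0 was just under 2-fold before rounding. The ferritin chains Fth1 and Ftl1 had liver responses of -0.14 and -0.37 and kidney responses of 0.13 and -0.32. Fbxl5, which marks an iron regulatory protein for decay when iron is plentiful, passed in liver at -1.13 with -0.95 in kidney, a contrast of -0.18 ± 0.36. Slc40a1, ferroportin, gave -0.19 in liver and 0.72 in kidney by its brighter probe, and 0.94 and 0.26 by its other probe, so the probes differed in the sign of the contrast, which normexp also turned, to 1.25. Own-median scaling turned the sign of the small contrasts of Fth1, Ftl1 and Fbxl5, to 0.17, 0.39 and 0.26. Hmox1 did not enter.

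Targets of hypoxia-inducible factors mostly had responses above 0 in both tissues, most of them under 2-fold. The exceptions were Angptl4, which fell in both tissues, and Bnip3l in liver (-0.44). Of 13 that entered, 4 rose and 1 fell in liver, and 2 rose and 1 fell in kidney, with medians of 0.18 and 0.46. Over all genes 2.56% rose and 2.1% fell in liver, 0.976% rose and 0.387% fell in kidney, and the medians were -0.11 and -0.06. The glucose transporter Slc2a1 passed in liver at 1.36 with 0.50 in kidney, and Adm, adrenomedullin, at 1.31 with 0.46, and neither contrast reached 2-fold. Ero1a gave 1.38 in liver and 0.78 in kidney, Pgk1 0.81 and 0.51, and Ldha 0.15 and 1.26 with spots that disagreed. Vegfa gave 0.01 in liver and 0.21 in kidney. Of 17 glycolysis genes, 4 rose and 1 fell in liver and 2 rose in kidney, with medians of 0.49 and 0.27, against the same shares and medians of all genes. Rgn, regucalcin, an enzyme of ascorbate synthesis that rats have, passed in liver at 1.43 with 0.49 in kidney, and its contrast of 0.94 ± 0.17 was 0.52, and its liver response 0.96, with noisy blocks left out. The spots of Rgn disagreed, by a standard deviation of up to 0.82.

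**Figure D5:**
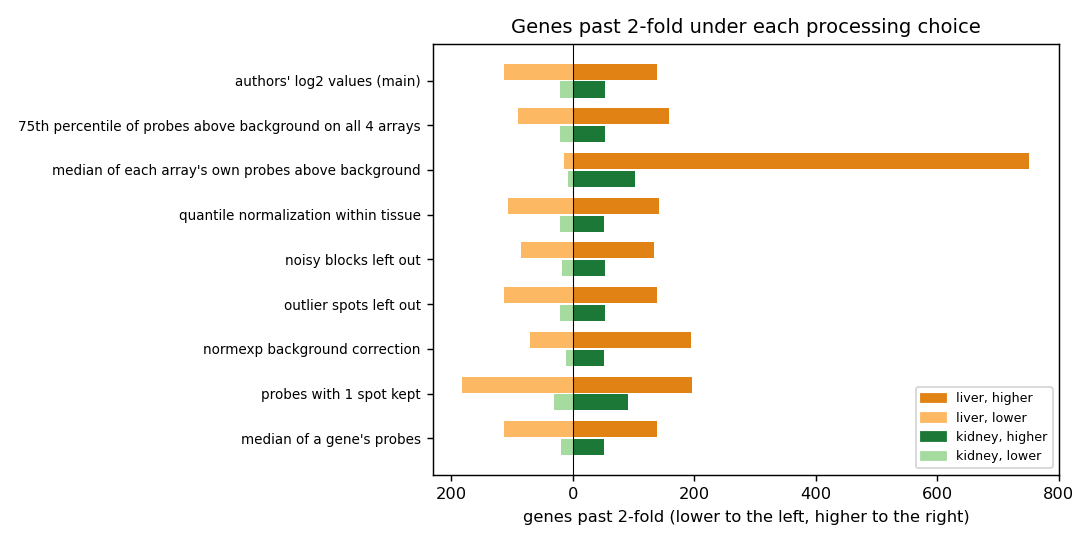
Bars count the genes past 2-fold in liver (orange) and kidney (green), higher to the right and lower to the left, under each processing choice. Own-median scaling gives 751 higher and 14 lower genes in liver, against 139 and 114 with the authors' values, while the kidney counts move from 53 and 21 to 102 and 8.

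Without the noisy blocks, the same class was kept by 8 of the 11 genes that rose in both tissues, 3 of 3 that fell in both, 66 of 86 and 41 of 58 that rose and fell in liver alone, and 28 of 32 and 7 of 8 that rose and fell in kidney alone. Other probes of the same genes, not used for the class, were few. Of 7 such probes for genes that rose in liver alone, 6 had a liver response above 0, 1 was past 2-fold, and 5 had a contrast of the same sign. Of 5 for genes that fell in liver alone, all had a contrast of the same sign and 3 were past 2-fold, and of 3 for genes that rose in kidney alone, all had the same sign and 2 were past 2-fold. Of 3 for genes that fell in kidney alone, none had a kidney response below 0 and 2 had a contrast of the same sign. Of 2 for genes that rose in both tissues, 1 was of the same class, and so were both other probes of Dbp.

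A few more genes passed in a tissue with a contrast under 2-fold: Ephx1, an epoxide hydrolase (-1.36 in liver, -0.58 in kidney), Gpx1, glutathione peroxidase (-1.02 and -0.24, or -0.82 in liver with noisy blocks left out), Shmt1, a folate enzyme (-1.19 and -0.40, with a contrast of 0.02 under normexp), Rsad2, an interferon-induced enzyme (1.25 and 0.75), and Asgr1, a hepatocyte receptor (-0.39 and -1.11). Normexp also reduced by over 1.5 times the contrasts of Cdr2 (0.96), Zfp64 (1.22), Rhbg (1.82), Sfxn1 (-1.10) and Hrh4 (-1.46), in which the sign was kept. With normexp, the class of Cdr2, Aldoa, Bcl3, Plod1, Scd4, Angptl4, Hrh4, Rims3, Acot2, Ces2c, Cpt1a, Hnf4a, Me1 and Ubd was lost as well. With own-median scaling it was lost by Acot2, Angptl4, Aspg, Ces2c, Cidea, Col3a1, Cpt1a, Dbp, Ftcd, Hnf4a, Me1, Nr0b2, Palld and Ubd. The 75th percentile of probes above background on all 4 arrays lost it for Ces2c, Col3a1, Cpt1a, Ftcd and Hnf4a, quantile scaling for Col3a1 and Cpt1a, and leaving out outlier spots for Col3a1.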

How the data were processed

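RNA of 4 tissue groups was measured on 1 one-colour array each. Per the file headers, the authors extracted background-subtracted spot intensity with Agilent Feature Extraction 10.7.3.1, and the array design names the rn4 build. The authors deposited a table of probe intensity and of log2 values. Each log2 value was checked to be the log2 of that intensity less the 75th percentile of its array, and the log2 values were used as deposited. Members and gene lists were chosen with earlier results of these data known. Genes were taken by the gene ID in the table and symbols from RefSeq (GRCr8) for 5383 of 5430 genes, of which 377 changed. 148 kept probes had no gene ID, and 3861 probes with 1 spot were left out of the main values. Genes named by class or list have spots that differ by a standard deviation of at most 0.5 on each array. They are up to 10 per class and direction by size (8 in opposite directions) and up to 3 per list past 2-fold. A further rule named 10 iron and clock genes in every case, whatever their spots. Others are named as examples after their values were seen, with disagreeing spots stated. Alternatives changed the scaling, background correction, spots, probes, filter and size rule. normexp (limma 3.58.1, R 4.3.3, offset 50) ran on the median signal. The class rule was tested on simulated data with planted responses well past the size rule and no noisy blocks. That test does not cover genes near 2-fold. Values were computed in Python 3.11.15 (numpy 2.4.6, pandas 2.3.3). The threshold for noisy blocks was set after seeing the arrays. Array number limits the precision, and slide does not separate the groups.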

Additional observations from a re-analysis of the deposited data

Results flagged for a closer look

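Among genes chosen by the naming rule, those with responses of at least 1.5-fold and opposite sign, and a contrast past 2-fold, stand out as differences between the tissues. With 1 array per group none of these differences was tested. Pklr (contrast -2.15), Fasn (-1.68) and Atf3 (3.04), named above as examples outside that rule, met the same sizes and are not counted here. In Akr1b8 the contrast was 4.67, from 3.92 in liver and -0.75 in kidney. In 7 genes it ran the other way, lower in liver and higher in kidney on the iron-free diet: Hrh4 (-2.20), Alas1 (-1.92), Ubd (-1.91), Cidea (-1.80), Palld (-1.74), Rims3 (-1.71) and Ugp2 (-1.65). With noisy blocks left out these contrasts were 4.72 for Akr1b8, -2.15 for Hrh4, -1.65 for Alas1, -1.72 for Ubd, -1.76 for Cidea, -1.70 for Palld, -1.67 for Rims3 and -1.60 for Ugp2. The liver responses of Alas1, Ugp2 and Rims3 were then -0.57, -0.57 and -0.53, under 1.5-fold, so these genes no longer met the rule. A second Cidea probe of 1 spot gave -0.77 in liver and -0.35 in kidney, so it had the same sign in both.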

How the results depend on the processing

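Counts of genes that rose in both, fell in both, rose in liver alone, fell in liver alone, rose in kidney alone, fell in kidney alone and passed in opposite directions were 11, 3, 86, 58, 32, 8 and 1. With own-median scaling, those that moved by over 1.5 times were 44, 1, 392 and 11 in the order of the first 4, and 4 for those that fell in kidney alone. Normexp gave 36 that fell in liver alone and 4 that fell in kidney alone. It changed membership more than the counts show. In the same order of classes, it kept 6 of 11, 1 of 3, 58 of 86, 25 of 58, 20 of 32, 3 of 8 and 1 of 1 genes. Keeping probes with 1 spot gave 20 that rose in both, 104 that fell in liver alone, 56 that rose in kidney alone and 3 in opposite directions. Without the background filter the 7 counts were 75, 75, 610, 571, 404, 309 and 113, at 1.5-fold 52, 43, 262, 282, 88, 58 and 33, and at 3-fold 3, 0, 20, 10, 6, 2 and 0. Requiring spots that do not overlap between diets left 5 that fell in kidney alone. Opposite directions had 2 genes with the 75th percentile of shared probes, with quantile scaling and with noisy blocks left out. The cause of these moves was not tested. Of 684 contrasts of named genes under alternatives, 564 moved by at most their spot error and 1 had no value. Changes to the filter or to the choice of probe returned the same probe value for many genes, so those contrasts could not move. The count of 564 is thus not a measure of stability. In 13 of the 684 contrasts, of 8 genes, the sign changed, and the only one of these past 2-fold in the main values was Hsp90aa1, at -0.03 with probes of 1 spot kept. The class was kept under all 10 alternatives by 15 of 20 named genes that rose in liver alone, 8 of 13 that rose in kidney alone, 3 of 7 that rose in both and 6 of 17 that fell in liver alone, but by none of the 3 that fell in both and not by the 1 that fell in kidney alone. No paired analysis was possible because each group is 1 array. Leaving out a replicate was not possible for the same reason. Genes near background have only bounds and did not enter.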
